A study of Homo sapiens with 16 samples.

Results

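The genes described are the membrane-bound sensors and transcription factors of the endoplasmic reticulum (ER) stress response other than PERK, together with the proteases that release them. They are the sensor ERN1 (IRE1) and its substrate XBP1, the sensors ATF6 and ATF6B, the related factors CREB3 and CREB3L2, the site-1 and site-2 proteases MBTPS1 and MBTPS2, and the ER-tethered factor NFE2L1. They form a set by function and are 9 of the 58051 gene identifiers in the table, and all 9 passed the filter on low values, which left 13765 genes for testing. RNA was sequenced from P493-6, an immortalised human B cell line with a MYC transgene that doxycycline represses. High MYC cells received no additive, and medium MYC cells received 0.1 µg/mL doxycycline with 1 µM beta-estradiol from 24 h before treatment. Cells of each kind were then given 100 nM IMP1088, which blocks the N-myristoyltransferases (NMTs), or DMSO as control for 24 h, with 4 libraries in each of the 4 groups. In P493-6 cells estradiol also switches on the viral factor EBNA2, so MYC level, doxycycline and estradiol cannot be told apart here. All libraries come from a single cell line, and nothing in the labels says that they came from separate cultures, so the p-values measure only the spread between these libraries.

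When unfolded proteins build up in the ER, IRE1 cuts a short intron out of XBP1 mRNA, and the spliced message encodes an active transcription factor. ATF6 and its relatives travel to the Golgi, where the site-1 and site-2 proteases cut them and set free a fragment that enters the nucleus. The same proteases release the SREBP factors of sterol and fatty acid synthesis, and XBP1 and PRDM1 are known for their part in the secretory programme of plasma cells, the antibody-secreting descendants of B cells. These activating steps take place on mRNA structure or on protein, and counts per gene cannot show them.

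The values are counts scaled to a common library size, called normalized counts below. Libraries held 8755296 to 13858534 reads, and 18899 to 21081 genes per library had a value above 0. MYC averaged 31649 ± 2.13e+03 (SD, n = 4) in the high MYC control libraries and 47542 ± 505 in the high MYC inhibitor libraries. It averaged 958.6 ± 48.7 in the medium MYC control libraries and 1382 ± 51.2 in the medium MYC inhibitor libraries. The 8 B cell markers examined all had more than 10 reads. Their summed normalized count ranged from 24907 to 25106 in high MYC controls, from 20214 to 21150 with the inhibitor, from 40686 to 41350 in medium MYC controls and from 35924 to 37164 with the inhibitor. In the same order of groups, 6 T cell markers summed to 62.9 to 71.5, 44.1 to 57.7, 75.1 to 100.6 and 44.3 to 56.4, and 6 monocyte markers to 41.4 to 64.8, 50.5 to 64.4, 51.7 to 62.6 and 80.4 to 84.4. The 7 epithelial or fibroblast markers summed to 65.9 to 77.5, 71.0 to 94.6, 224.9 to 254.7 and 305.2 to 315.9, with DCN at 0. These markers did not move together. Between high and medium MYC controls EPCAM went from a mean of 62.1 to 13.1. CDH1 went from 0.188 to 55.4 and COL1A1 from 7.09 to 164.2. Of the erythroid markers, HBB was at 0 in all libraries. Marker sums moved with MYC level and with the inhibitor, and their part in the results below was not tested. In bulk RNA, fewer cells of a type and less RNA per cell cannot be told apart.

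A promoter stretch and an mRNA stretch of XBP1 are shown because the results turn on this gene. The XBP1 gene lies on the minus strand of chromosome 22 (GRCh38, 28794555 to 28800597). The first stretch is promoter sequence from RefSeq (GRCh38.p14, chr22:28800598-28800689, minus strand), in which capitals mark the ER stress response element (ERSE). The ERSE is the binding site of ATF6 with the CCAAT-binding factor NF-Y and was searched on either strand as CCAAT, any 9 bases and CCACG. The second stretch is coding sequence from exon 4 of 5 of the transcript XBP1-201 in GENCODE 29 (chr22:28796104-28796169, minus strand). Its capitals mark the 26 bases that IRE1 removes, at chr22:28796124-28796149.
XBP1 promoter: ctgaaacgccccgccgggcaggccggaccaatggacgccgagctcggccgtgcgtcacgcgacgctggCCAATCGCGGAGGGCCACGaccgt
XBP1 mRNA: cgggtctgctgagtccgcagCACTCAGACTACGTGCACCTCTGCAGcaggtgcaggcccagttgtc
Of the 7 XBP1 transcripts annotated in GENCODE 29, 4 hold the 26-base stretch and 2 are joined without it. A count per gene adds all of them together, so the values below do not separate spliced from unspliced XBP1.

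With the inhibitor, XBP1 and ERN1 were higher at high MYC and all but ATF6B and MBTPS2 were higher at medium MYC. At medium MYC XBP1 moved most, by 2.08-fold, and at high MYC it changed by 1.16-fold. At high MYC, 2 of the 9 genes were called and both were higher, against 26.8% of all tested genes called in either direction, 10.5% higher and 16.3% lower. For 4 of the 9 (XBP1 and ERN1 higher, ATF6B and NFE2L1 lower) the groups did not overlap, which held for 26.7% of all tested genes. The median log2 change of the 9 genes was 0.03, and that of all tested genes was -0.02. At medium MYC, 7 of the 9 were called and all 7 were higher, against 26.3% of all tested genes called in either direction, 11.7% higher and 14.6% lower. The groups did not overlap for the same 7, and for 27.9% of all tested genes. The median log2 change of all 9 genes was 0.19, with -0.01 over all tested genes. Called means an adjusted p under 0.05 (limma, Benjamini-Hochberg over all tested genes).

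**Figure D1:**
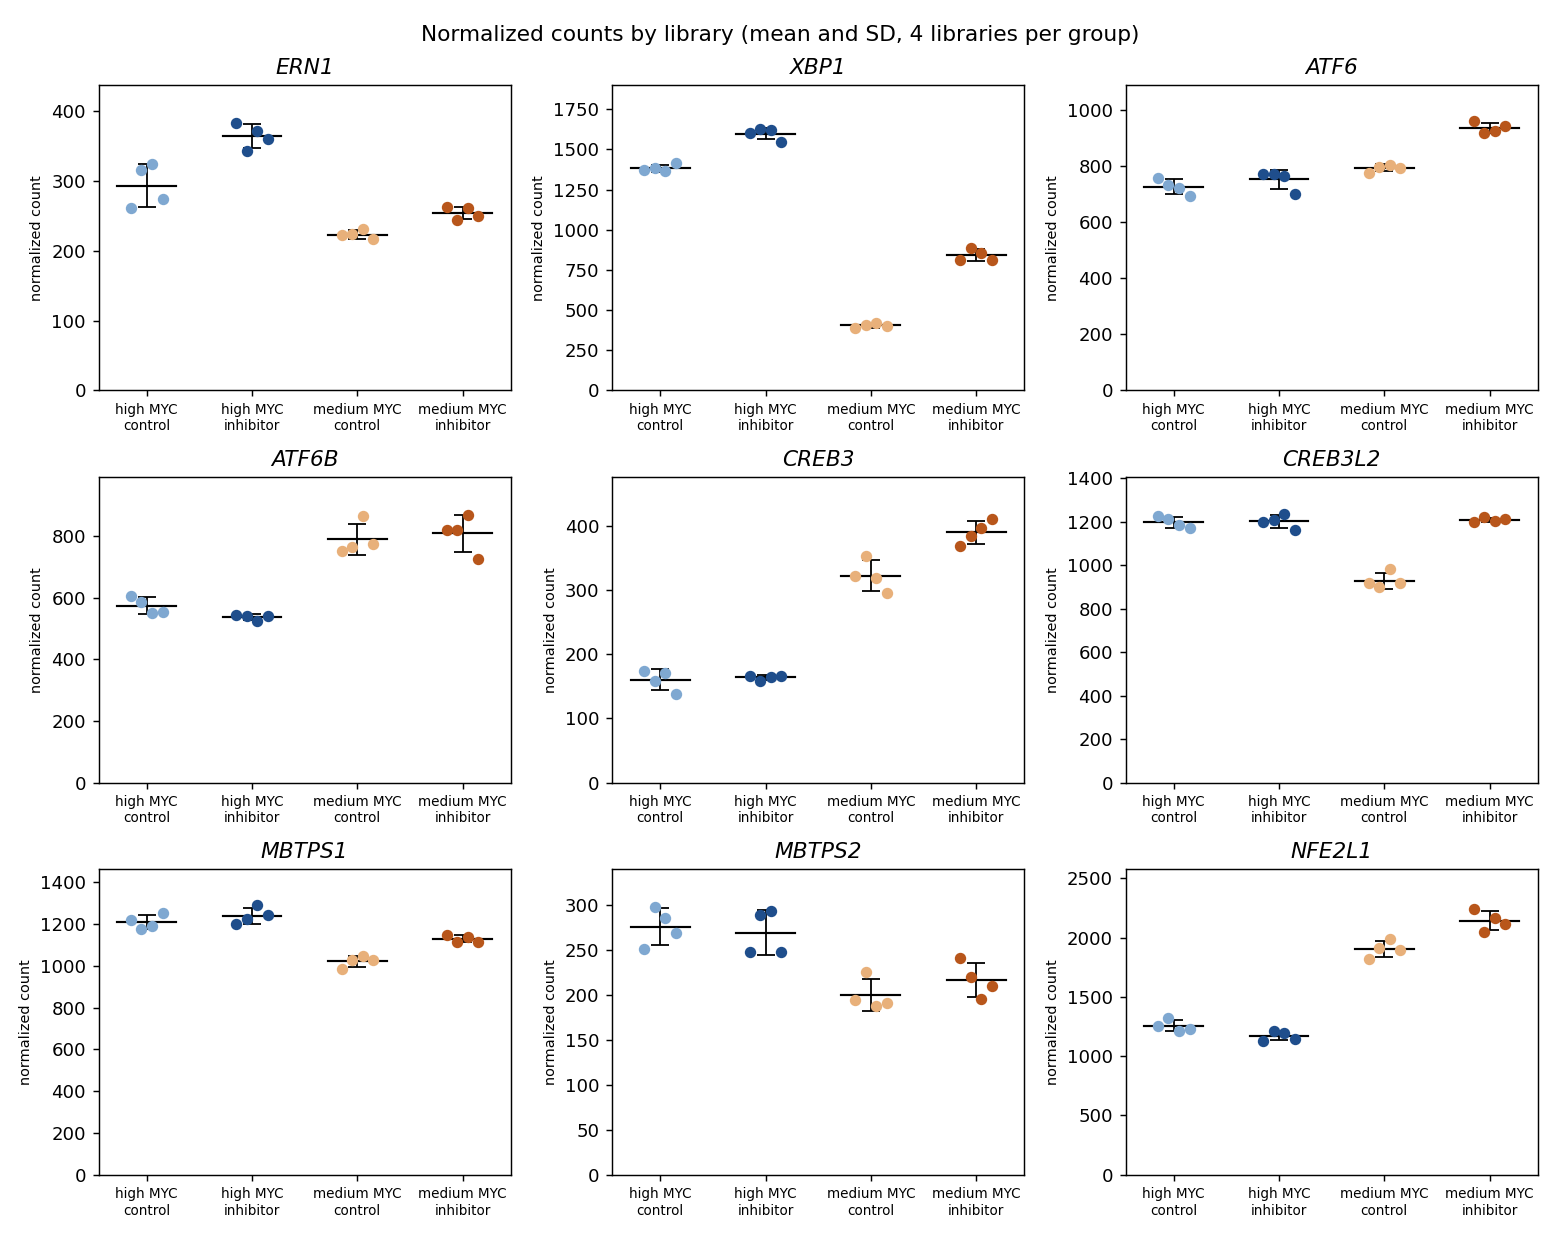
Normalized count (linear axis from 0) of each of the 9 genes in all 16 libraries. Points are libraries, horizontal lines are group means and bars are 1 SD (n = 4). XBP1 went from a mean of 404.8 to 843.0 in the medium MYC libraries, whereas CREB3, ATF6B and NFE2L1 stood higher in the medium MYC groups than in the high MYC groups.

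The difference between the responses, medium MYC minus high MYC, was tested in the same fit. It was called for 4 of the 9 genes (XBP1, CREB3L2, NFE2L1 and ATF6), each time with the larger change at medium MYC, against 8.63% of all tested genes called, 5.33% higher and 3.31% lower. The median difference was 0.19 for the 9 genes and 0.02 for all tested genes. It uses the same control libraries as the separate responses and adds no independent evidence for them.

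**Figure D2:**
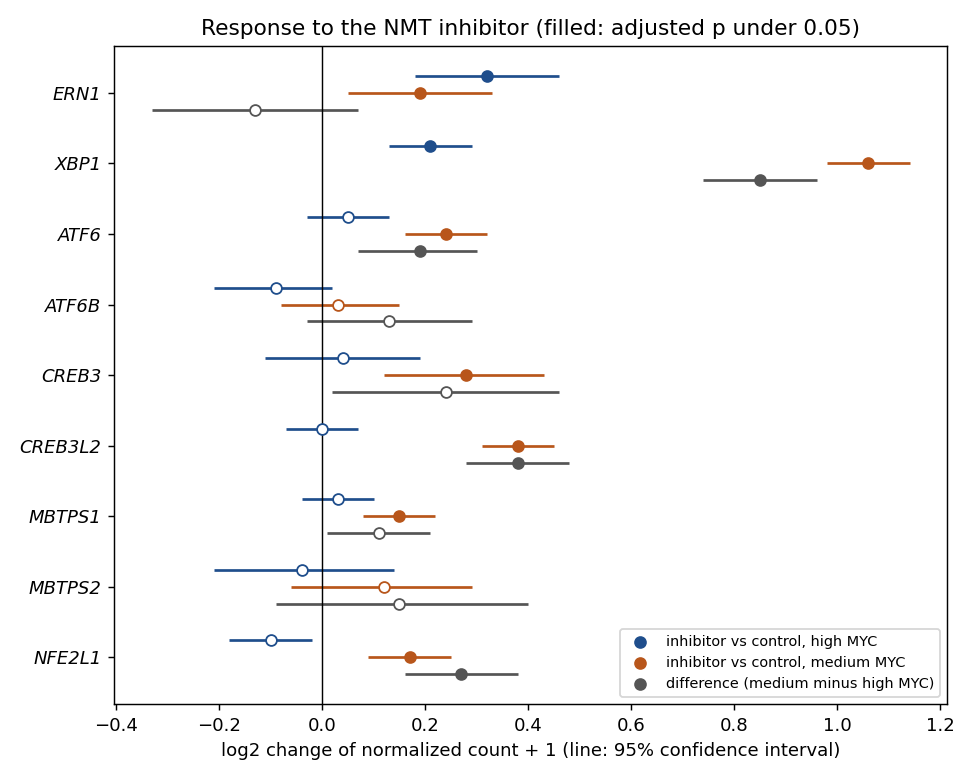
Log2 change with the inhibitor at high MYC (blue) and medium MYC (orange) and the difference between them (grey) for each of the 9 genes, with 95% confidence intervals from limma and filled points for adjusted p under 0.05. At medium MYC 7 genes lay above 0 and passed the test, led by XBP1 at 1.06, while at high MYC XBP1 (0.21) and ERN1 (0.32) passed it.

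ERN1 encodes IRE1, the kinase and endoribonuclease that senses unfolded protein in the ER lumen (chromosome 17, 64039142 to 64130819). In the high MYC controls its normalized counts were 261.3, 315.6, 324.5 and 273.8, and with the inhibitor they were 382.8, 343.8, 372.6 and 360.7. The groups did not overlap, and the log2 change was 0.32 ± 0.07 (SE; adjusted p = 0.00109, limma). At medium MYC the controls had 222.2, 224.3, 231.0 and 216.6 and the inhibitor libraries 263.3, 244.4, 261.1 and 250.1. These groups did not overlap either, although the change was smaller, at 0.19 ± 0.07 (adjusted p = 0.0424). The call at medium MYC was lost with DESeq2 (adjusted p = 0.091), without the filter on low values (0.0698) and in 8 of the fits that left out a library, up to 0.0993 without the medium MYC inhibitor library of replicate 1. It held with edgeR (0.035). Between the MYC levels the response differed by -0.13, with a 95% interval from -0.33 to 0.07, so it was not resolved.

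XBP1, the transcription factor made from the message that IRE1 splices, rose at both MYC levels. Its normalized counts at high MYC were 1370, 1384, 1363 and 1414 in controls and 1603, 1626, 1619 and 1546 with the inhibitor. At medium MYC they were 387.0, 409.2, 422.7 and 400.5 in controls and 810.9, 889.1, 857.5 and 814.7 with the inhibitor. All 4 inhibitor libraries stood above all 4 controls at each level, and no pair of the 4 groups overlapped. The log2 change was 0.21 ± 0.04 at high MYC (SE; adjusted p = 0.000264) and 1.06 ± 0.04 at medium MYC (adjusted p = 1.12e-14, limma). The response at medium MYC was larger by 0.85 on the log2 scale, with a 95% interval from 0.74 to 0.96 (adjusted p = 7.85e-10). The larger response started from a lower level, since XBP1 in medium MYC controls was 0.293 times that in high MYC controls. Treated medium MYC libraries reached 0.61 times the high MYC control level and did not overlap it. XBP1P1, a processed copy of the gene, averaged 4.429 normalized counts.

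ATF6, the sensor whose cut fragment activates ER chaperone genes (chromosome 1, 161766294 to 161964070), was higher with the inhibitor at medium MYC. At high MYC the controls had 756.9, 732.2, 720.7 and 691.8 normalized counts and the inhibitor libraries 772.1, 773.1, 762.7 and 701.6. These groups overlapped, through a single inhibitor library at 701.6, and the log2 change of 0.05 had a 95% interval from -0.03 to 0.13 (adjusted p = 0.362). At medium MYC the controls had 776.1, 797.9, 804.3 and 794.4 and the inhibitor libraries 958.8, 917.9, 924.3 and 943.8. The groups stood well apart, and the change was 0.24 ± 0.04, or 1.18-fold (adjusted p = 7.93e-05, limma). The responses differed by 0.19 ± 0.06 (adjusted p = 0.0388). That call was lost with DESeq2 (0.0847), without the filter (0.0758) and in 10 of the fits that left out a library, up to 0.0867 without the high MYC inhibitor library of replicate 4, where the difference was 0.15. It held with edgeR (0.0308).

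ATF6B, the paralog of ATF6 and a weaker activator (chromosome 6, 32115264 to 32128253), was not called with the inhibitor at either level. Of its 3629 exon bases, 289 overlap AL662884.2 and 71 overlap TNXB on the same strand, so part of its count is uncertain. At high MYC its controls had 605.5, 586.2, 549.6 and 553.2 normalized counts and the inhibitor libraries 543.1, 539.1, 523.6 and 541.6. All inhibitor libraries were below all controls, by -0.09 on the log2 scale with a 95% interval from -0.21 to 0.02 (adjusted p = 0.212). At medium MYC the range was 750.0 to 864.6 in controls and 725.0 to 866.9 with the inhibitor, so the groups overlapped, with a change of 0.03 and an interval from -0.08 to 0.15. The ratio of the ATF6 count to the ATF6B count, which does not depend on library scaling, was 1.27 ± 0.0307 in high MYC controls and 1.40 ± 0.0724 with the inhibitor (SD, n = 4). It was 1.01 ± 0.0526 in medium MYC controls and 1.16 ± 0.101 with the inhibitor. The mean ratio was higher with the inhibitor and lower at medium MYC, and it was not tested. At high MYC the ratios overlapped, from 1.25 to 1.31 in controls and from 1.3 to 1.46 with the inhibitor. At medium MYC they did not overlap (0.93 to 1.04 and 1.07 to 1.3).

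CREB3, an ATF6-like factor of the ER membrane (chromosome 9, 35732335 to 35737004), had few reads, from 123 to 413 per library. Its high MYC values were 174.0, 158.3, 171.1 and 137.5 in controls and 166.7, 158.6, 164.1 and 166.3 with the inhibitor, which overlapped (log2 change 0.04 ± 0.07, adjusted p = 0.751). Its medium MYC values were 321.3, 353.6, 319.4 and 295.4 in controls and 369.3, 384.4, 396.9 and 411.4 with the inhibitor. These did not overlap, and the change was 0.28 ± 0.07 (adjusted p = 0.00705, limma). The difference between the responses, 0.24 with an interval from 0.02 to 0.46, was not called (adjusted p = 0.18). It became called without the high MYC control library of replicate 4, at 0.31 (0.0469). Exons of CREB3 overlap those of TLN1 by 61 bases and of GBA2 by 139 bases on the opposite strand. Strand use in counting is not given in the sources used here, so CREB3 values are uncertain. TLN1 moved the other way with the inhibitor at medium MYC (-0.64).

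CREB3L2, a related factor active in secretory cells (chromosome 7, 137874979 to 138002067), was called with the inhibitor at medium MYC and not at high MYC. High MYC controls had 1225, 1210, 1185 and 1169 normalized counts and the inhibitor libraries 1199, 1206, 1237 and 1162. The change there was 0.00 with a 95% interval from -0.07 to 0.07. Medium MYC controls had 916.9, 898.9, 981.0 and 915.8, and the inhibitor libraries had 1200, 1222, 1205 and 1211. The change was 0.38 ± 0.03, or 1.3-fold (adjusted p = 1.78e-08, limma), and the difference between the responses was 0.38 ± 0.05 (adjusted p = 1.3e-05). With the inhibitor, medium MYC libraries overlapped the high MYC libraries (log2 difference 0.01, interval -0.06 to 0.08). Its promoter window holds a CREB/ATF element (CRE, TGACGTCA), shown here in capitals because CREB3L2 belongs to the family that binds such elements (RefSeq, GRCh38.p14, chr7:138002246-138002277, minus strand).
CREB3L2 promoter: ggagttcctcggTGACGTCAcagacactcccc

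Of the proteases, MBTPS1 (site-1 protease, which makes the first cut; chromosome 16, 84053761 to 84116906) was higher with the inhibitor at medium MYC. Its medium MYC controls had 983.6, 1027, 1045 and 1027 normalized counts and the inhibitor libraries 1149, 1114, 1139 and 1116. The groups did not overlap, although the change was small, at 0.15 ± 0.03 or 1.11-fold (adjusted p = 0.00233, limma). At high MYC the controls ranged from 1175 to 1255 and the inhibitor libraries from 1199 to 1290, with a change of 0.03 (interval -0.04 to 0.10). The difference of 0.11 between the responses was not called (adjusted p = 0.17). MBTPS2 (site-2 protease, which cuts within the membrane; chromosome X, 21839636 to 21885424) did not pass the test at either level. Its changes were -0.04 (interval -0.21 to 0.14) at high MYC and 0.12 (interval -0.06 to 0.29) at medium MYC. The medium MYC value ran from 0.063 (without the inhibitor library of replicate 1) to 0.18 (without the control library of replicate 2), and was 0.031 with the GC correction. Of its 8927 exon bases, 1093 overlap YY2 on the same strand, which averaged 27.79 normalized counts, so part of its count is uncertain.

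NFE2L1, which is held in the ER membrane and induces proteasome genes once the protease DDI2 has cut it (chromosome 17, 48048329 to 48061487), had opposite signs at the 2 MYC levels. At high MYC the controls had 1256, 1321, 1216 and 1229 normalized counts and the inhibitor libraries 1132, 1213, 1196 and 1146. Every inhibitor library was below every control, and the change of -0.10 ± 0.04 just missed the threshold (adjusted p = 0.0547, limma). It passed with a filter at a mean of 100 (0.0462) and in 4 fits that left out a library (0.0405 to 0.0487). At medium MYC the controls had 1817, 1913, 1985 and 1892 and the inhibitor libraries 2245, 2050, 2163 and 2115, with no overlap and a change of 0.17 ± 0.04 (adjusted p = 0.00139). An antisense gene, AC004477.2, overlaps 192 exon bases and is listed at 0. The difference between the responses was 0.27, with an interval from 0.16 to 0.38 (adjusted p = 0.00179).

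Between the MYC conditions themselves, all 9 genes differed in the libraries without inhibitor, 4 of them being higher at medium MYC and 5 lower. This stands beside 76.2% of all tested genes called, 38.9% higher and 37.3% lower. The groups did not overlap for any of the 9 genes and for 69.2% of all tested genes. XBP1 was 3.41-fold lower at medium MYC (log2 difference -1.77 ± 0.04, adjusted p = 2.31e-20, limma). MBTPS2 (-0.46), ERN1 (-0.39), CREB3L2 (-0.37) and MBTPS1 (-0.24) were also lower. CREB3 was 2.01-fold higher (1.01 ± 0.07, adjusted p = 4.26e-11), and NFE2L1 (0.60), ATF6B (0.46) and ATF6 (0.13) were higher. The CREB3 difference has the same sign as that of TLN1 (1.44) and GBA2 (0.35), whose exons overlap it. Among the inhibitor libraries 8 of the 9 genes were called, 4 in each direction, against 77.5% of all tested genes, 39.7% higher and 37.8% lower, with CREB3L2 the exception. The groups of those 8 did not overlap, as for 72.6% of all tested genes. There XBP1 was 1.9-fold lower and CREB3 was higher by 1.25 on the log2 scale.

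Levels between genes were set side by side per kilobase of exon (union of GENCODE 29 exons). In high MYC controls XBP1 stood highest at 456.6 normalized counts per kilobase, followed by NFE2L1 at 215.6, ATF6B at 158.1, CREB3L2 at 136.2, MBTPS1 at 118.1, ATF6 at 91.9, CREB3 at 84.2, MBTPS2 at 30.9 and ERN1 at 27.0. In medium MYC controls NFE2L1 (326.4), ATF6B (217.3) and CREB3 (169.4) stood above XBP1 (133.7), and with the inhibitor XBP1 reached 278.4, second to NFE2L1 at 368.0. The sensor ERN1 was among the least abundant throughout, between 20.6 and 33.6 per kilobase. Over the 4 groups, ERN1 was highest in high MYC inhibitor libraries and lowest in medium MYC controls, and the high MYC control and medium MYC inhibitor groups between them overlapped. ATF6, ATF6B, CREB3 and NFE2L1 were highest in medium MYC inhibitor libraries, with the ATF6B groups of medium MYC overlapping. The CREB3L2 mean was also highest there, but that group overlapped both high MYC groups.

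Genes nearest in pattern were sought among 10902 genes with a mean of at least 50, by the root mean square difference of the 4 centred log2 group means. For XBP1 these were CEBPB at 0.071, PCDH9 at 0.092 and FAM27E3 at 0.111. CEBPB averaged 84.7 normalized counts without and 97.5 with the inhibitor at high MYC, and 26.5 and 57.7 at medium MYC. For ERN1 they were ZBTB49 (0.013), GUCY1A1 (0.020) and ZFP36L2 (0.027), and for ATF6 they were LTK (0.007), SRPK2 (0.020) and WDR48 (0.020). The distances compare 4 group means over 16 libraries and carry no test.

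Partners and relatives of the sensors moved in both directions. Of 26 such genes 24 were tested, and ERN2 and CREB3L3 fell under the filter. At high MYC 3 were higher and 5 lower (median log2 change 0.02), and at medium MYC 8 were higher and 3 lower (median 0.08). These and the medians below stand beside -0.02 at high MYC, -0.01 at medium MYC and 0.02 for the difference over all tested genes. The counts, here and for the lists below, stand beside 10.5% of all tested genes higher and 16.3% lower at high MYC. At medium MYC the shares were 11.7% higher and 14.6% lower, and for the difference 5.33% and 3.31%. The counts of partners at high MYC were near those shares. EIF2AK3, which encodes PERK, rose by 0.26 ± 0.04 at high MYC (adjusted p = 1.8e-05) and by 0.62 ± 0.04 at medium MYC (adjusted p = 5.38e-11, limma). SYVN1, the ubiquitin ligase HRD1 of ER-associated degradation, fell at high MYC from 1726 ± 135 to 1393 ± 21.5 (log2 change -0.31), and its response at medium MYC was higher by 0.51 (adjusted p = 7.75e-05). SEL1L, the adaptor of HRD1, rose by 0.49 at medium MYC. INSIG1, which holds SREBPs in the ER and is itself a sterol-regulated gene, fell by 0.31 at high and by 0.26 at medium MYC. DDI2, the protease that cuts NFE2L1, fell by 0.17 at medium MYC. C2orf49, a subunit of the tRNA ligase complex that joins the XBP1 exons, rose by 0.40 at high MYC (adjusted p = 0.000376, limma). At medium MYC it rose by 0.30 (adjusted p = 0.00411). RTCB, the ligase itself, fell by 0.28 at high MYC (adjusted p = 0.000218, limma), and the subunit RTRAF rose by 0.13 (adjusted p = 0.012). The remaining listed subunits, DDX1 (0.02) and FAM98B (0.08), were not called there, and neither was ZBTB8OS (-0.18). RTCB, RTRAF, DDX1, FAM98B and ZBTB8OS were named after their values were seen.

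All 13 listed ATF6 target genes, mostly chaperones and folding enzymes of the ER, rose with the inhibitor at medium MYC, with a median log2 change of 0.67. The responses differed for all 13 as well (median 0.67). HSPA5, the chaperone BiP, averaged 2988 normalized counts in medium MYC controls and 7244 with the inhibitor, a log2 change of 1.28 ± 0.03 (adjusted p = 3.32e-18, limma). At high MYC it averaged 5020 ± 147 in controls and 5152 ± 42.5 with the inhibitor, a change of 0.04 that was not called (adjusted p = 0.339). HERPUD1, a component of ER-associated degradation, changed by 1.28 ± 0.05 at medium MYC. At high MYC 2 of the 13 were higher (DNAJC3 by 0.20 and HYOU1 by 0.10) and 2 lower (PDIA4 by -0.14 and CALR by -0.08). Those small changes depended on the processing: with quantile normalization 4 were higher and both lower calls were lost, and HYOU1, PDIA4 and CALR each lost the call under at least 1 alternative. Without inhibitor, 8 of the 13 were lower at medium MYC than at high MYC and 5 were higher (median -0.16). This stands beside 37.3% of all tested genes lower and 38.9% higher (median 0.02). The control level of the 13 genes was not uniformly lower at medium MYC, and its part in the larger response was not tested. The list shares PDIA6 and SEL1L with the partners.

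All 24 listed XBP1 target genes, which serve translocation, glycosylation and vesicle traffic, were higher with the inhibitor at medium MYC (median 0.38), and 12 of them were higher at high MYC (median 0.14), where all calls were higher. SEC24D, a coat protein of vesicles that leave the ER, averaged 278.5 in high MYC controls and 464.1 with the inhibitor, and 444.3 and 1086 at medium MYC. Its log2 changes were 0.73 ± 0.05 (adjusted p = 1.96e-10) and 1.29 ± 0.05 (adjusted p = 1.26e-14, limma). SSR3, a subunit of the translocon-associated complex, rose by 0.25 at high and by 0.67 at medium MYC. SEC61A1, the channel of the translocon, rose by 0.70 at medium MYC, where its response exceeded that at high MYC by 0.55. For 14 of the 24 the responses differed, each time with the larger one at medium MYC.

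**Figure D3:**
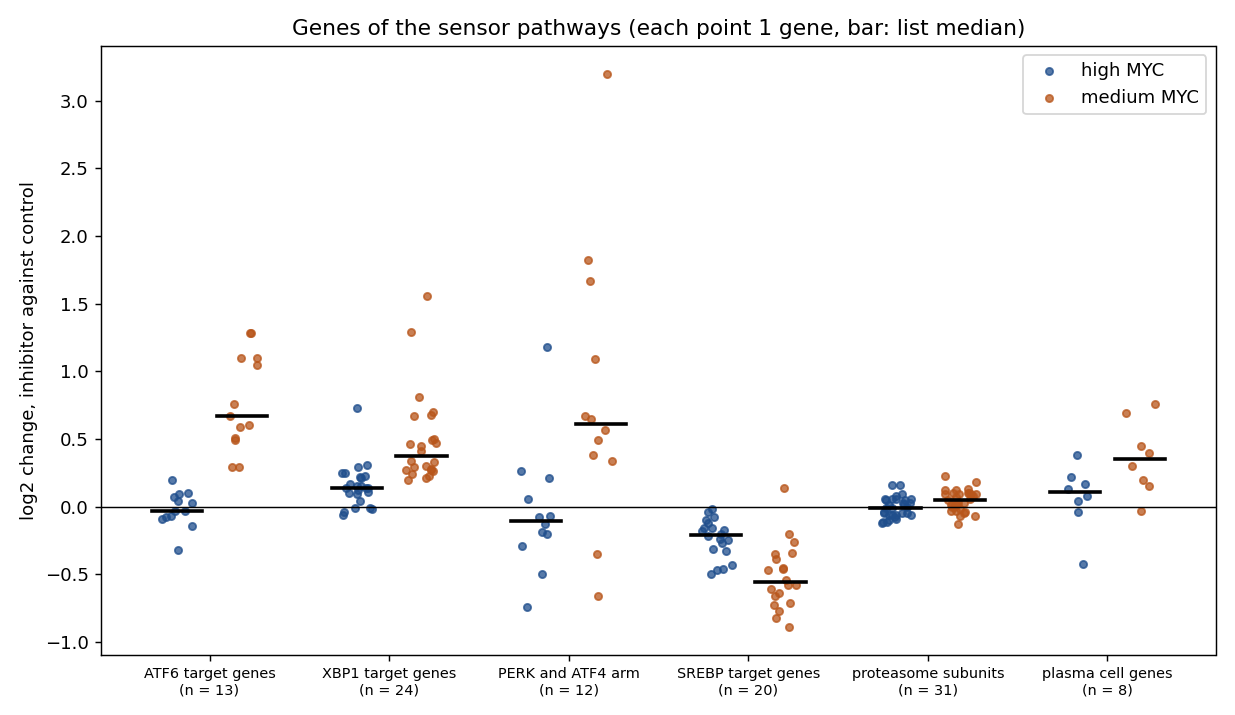
Log2 change with the inhibitor at high and at medium MYC for the genes of 6 lists, 1 point per tested gene, with the median of each list as a line. The ATF6 targets had a median near 0 at high MYC (-0.03) and of 0.67 at medium MYC, the XBP1 targets of 0.14 and 0.38, and the SREBP targets of -0.21 and -0.56.

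IRE1 can also cut other messages at the ER, a process known as regulated IRE1-dependent decay (RIDD). Of 7 listed substrates 4 were expressed enough to be tested, and SCARA3, COL6A1 and PMP22 were not. BLOC1S1, the best known substrate, fell by 0.36 at high MYC (adjusted p = 0.00382, limma), from 190.6 ± 11.8 to 148.5 ± 18.7. At medium MYC, where XBP1 and the chaperones rose most, its change was -0.16 and not called (adjusted p = 0.2). The difference between its responses, 0.20 ± 0.13, was not called either (adjusted p = 0.38), so it was not resolved. None of the 4 tested substrates had a difference that was called. PDGFRB fell at both levels, by 0.89 at high and by 0.52 at medium MYC. In all, 2 of the 4 were lower at high MYC and 1 was lower at medium MYC. With so few substrates and counts of a whole gene, these values do not measure cleavage.

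The PERK and ATF4 arm of the same stress response holds 12 listed genes, all tested. At high MYC 1 was higher and 4 lower (median -0.11), and at medium MYC 9 were higher and 2 lower (median 0.61). PSAT1, an enzyme of serine synthesis, rose by 1.82 ± 0.06 (adjusted p = 3.03e-15) and ASNS, asparagine synthetase, by 1.09 ± 0.05 at medium MYC. DDIT4 fell by 0.74 at high and by 0.66 at medium MYC, and TRIB3 fell by 0.50 and by 0.35. CHAC1, a glutathione-degrading enzyme induced by ATF4 and named here after its values were seen, had the largest change of the list at medium MYC, from 12 ± 4.03 to 114.4 ± 13.6 normalized counts (3.20 ± 0.47, adjusted p = 2.33e-05). So members of the list moved in both directions at both levels. PPP1R15A, the phosphatase subunit that restores translation, was the gene higher at high MYC (0.21, adjusted p = 0.0202), and the call was lost with DESeq2 (0.0662).

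The SREBP targets, whose factors depend on the same site-1 and site-2 proteases, were mostly lower with the inhibitor at both MYC levels. Of 20 tested genes, 14 were lower at high MYC (median -0.21) and 19 at medium MYC (median -0.56). All calls on the list were lower. HMGCS1, an enzyme of the mevalonate pathway, fell by 0.46 ± 0.03 at high MYC (adjusted p = 1.13e-09) and by 0.77 ± 0.03 at medium MYC (adjusted p = 2.15e-13, limma). LSS, lanosterol synthase, fell by 0.47 at both MYC levels. SCD, a fatty acid desaturase, fell by 0.16 at high and by 0.89 at medium MYC. The responses differed for 14 of the 20 genes, with the larger fall at medium MYC, by -0.72 for SCD. The list shares INSIG1 with the partners and includes SREBF1 and SREBF2, the genes of the SREBP factors themselves.

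The proteasome subunits, which NFE2L1 is known to induce, changed little. Of 31 genes, 1 was higher (PSMD6, 0.16) and 1 lower (PSMD1, -0.11) at high MYC. At medium MYC 4 were higher and 1 lower. The medians were -0.01 and 0.05. The high MYC counts turned on the processing, with 5 lower and no higher call after the GC correction and 4 higher and no lower call after quantile normalization. PSMC2 (0.23) and PSMC4 (0.18) were higher at medium MYC and PSMD8 (-0.13) was lower. With equal library totals 8 were higher at medium MYC and the lower call was lost. Each of PSMD6, PSMD1 and PSMD8 lost its call under at least 1 alternative.

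Of 8 plasma cell genes, 4 were higher and 1 lower with the inhibitor at high MYC (median 0.10), and 5 were called at medium MYC, all higher (median 0.35). PRDM1, the master regulator of plasma cells, rose by 0.38 at high and by 0.40 at medium MYC. IRF4, its upstream partner, rose by 0.22 at high and by 0.30 at medium MYC. TNFRSF17, the receptor BCMA, fell by 0.42 at high MYC. MZB1, an ER cochaperone of antibody assembly, rose by 0.76 at medium MYC, and its response there was larger by 0.80 (adjusted p = 4.69e-08, limma). JCHAIN, the joining chain of secreted IgM and IgA, also responded more at medium MYC, by 0.52. Without inhibitor 6 of the 8 were lower at medium MYC than at high MYC, beside 37.3% of all tested genes. The remaining genes were higher there, IRF4 by 2.39 (2036 against 10657 normalized counts) and ELL2 by 1.66.

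A set of genes defined by the ERSE was examined after the values had been seen. Among 35116 RefSeq promoter windows, from 250 bases before to 50 after a start, 27 (0.0769%) hold it, and of the 9 genes only XBP1 does, 52 bases upstream of its start. The related ERSE-II (ATTGG, any base and CCACG; 0.0541% of windows) and the XBP1-type element UPRE (TGACGTGG, 0.729%) were in no window of the 9 genes. A CRE was in 1.85% of windows, among them that of CREB3L2, and an E-box (CACGTG, the element of MYC and other factors) in 7.26%, among them that of ATF6B. CRE and UPRE share the letters TGACGT. A match is only a match of letters, and a lack of one says nothing of binding. Chaperone genes of the ATF6 list with an ERSE are printed to show how the element varies between its fixed ends. Capitals mark the ERSE, which in CALR and CRELD2 reads on the other strand, as CGTGG to ATTGG. The windows are chr9:125241385-125241415 (HSPA5, minus strand), chr12:103930210-103930240 (HSP90B1, plus strand), chr19:12938378-12938408 (CALR, plus strand), chr2:10812847-10812877 (PDIA6, minus strand) and chr22:49918548-49918578 (CRELD2, plus strand).
HSPA5: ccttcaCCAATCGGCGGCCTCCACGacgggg
HSP90B1: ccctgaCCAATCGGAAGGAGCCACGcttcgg
CALR: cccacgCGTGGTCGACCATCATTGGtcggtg
PDIA6: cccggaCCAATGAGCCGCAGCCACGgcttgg
CRELD2: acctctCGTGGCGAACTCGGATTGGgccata

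The 27 windows belong to 25 gene symbols, of which 16 were tested. XBP1 is 1 of the 16, 5 are on the ATF6 list, 1 is on the XBP1 list and 9 are on no list. The genes are not independent of each other, since CRELD2 and ALG12 share 1 element between them, as do SERP1 and EIF2A. With the inhibitor at medium MYC 10 of the 16 were higher and 1, SYNPO, was lower, with a median log2 change of 0.39. Of all tested genes 11.7% were higher and 14.6% lower there, with a median of -0.01. XBP1 and the 6 genes on the lists were all among the 10, so their rise is already given above. Of the 9 on no list, 3 (CANX, EIF2A and FICD) were higher, 1 was lower and 5 were not called. At high MYC 4 of the 16 were higher and 3 lower, with a median of 0.03. Of all tested genes 10.5% were higher and 16.3% lower there, with a median of -0.02. The responses differed for 12 of the 16, 5 of them on no list, all in the direction of medium MYC, with a median difference of 0.35. Over all tested genes the responses differed for 8.63%, 5.33% in that direction, with a median of 0.02. Of the 5 on no list, SYNPO fell at both levels (-0.58 and -0.30). TRIM5 fell at high MYC (-0.24) and was not called at medium MYC. The SYNPO difference lost its call under 16 of 29 alternatives. With DESeq2 the differences of EIF2A (adjusted p = 0.0569) and FICD (0.0597) lost theirs. CRELD2 (1.10 ± 0.13), FICD (0.70 ± 0.10), which modifies BiP, and CALR (0.59 ± 0.03) were among those higher at medium MYC. ERO1B, TRIM5, ALG12, ZNF17 and TMEM120A carry the element and were not called at medium MYC.

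**Figure D4:**
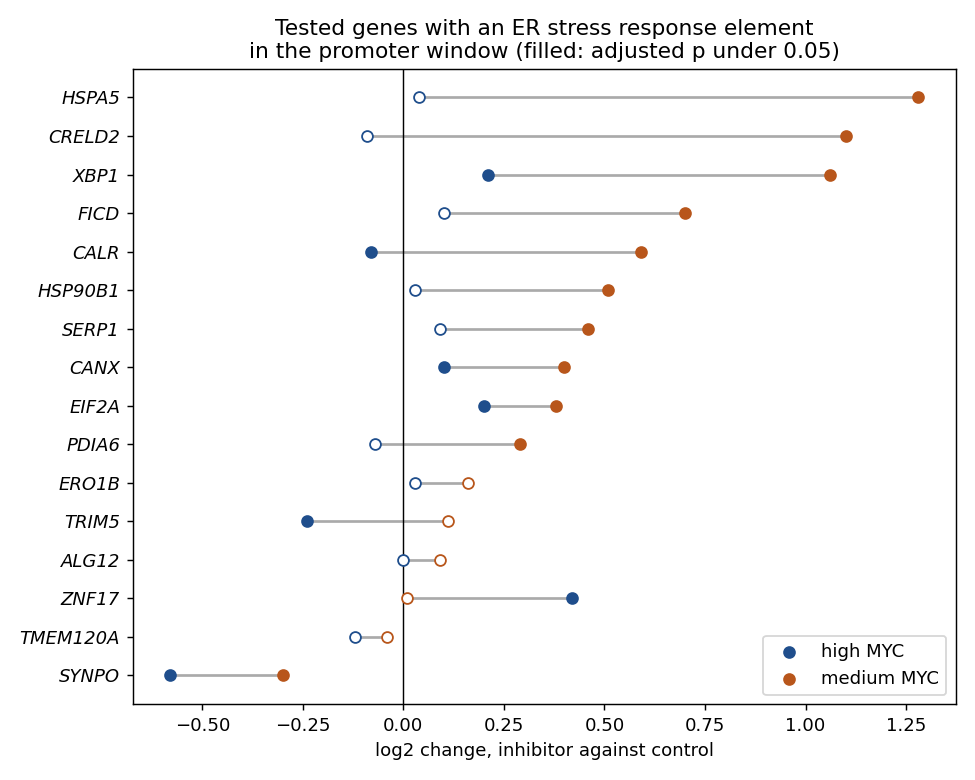
Log2 change with the inhibitor at high (blue) and at medium MYC (orange), joined by a line, for the 16 tested genes with an ERSE in the promoter window. Filled points passed the test (limma, adjusted p under 0.05). HSPA5 (1.28), CRELD2 (1.10) and XBP1 (1.06) had the largest changes at medium MYC, and SYNPO was lower at both levels (-0.58 and -0.30).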

How the data were processed

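The table the authors deposited holds 16 libraries and 58051 Ensembl identifiers, and its unit is a signal that they call normalized counts. The submitters' processing notes name STAR 2.5.2a, RSEM 1.2.31, DESeq2 1.16.1 and GRCh38, and the annotation and the use of strand are not given in the sources used here. In every library 100% of values were whole multiples of 1 step (tolerance 0.001 reads), so whole reads were recovered, 8755296 to 13858534 per library, with size factors from 0.858 to 1.33. RSEM estimates counts, so these reads may be rounded estimates.

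Genes averaging at least 10 (13765 in number) were tested on log2(value + 1) with limma 3.58.1 (R 4.3.3). All 16 libraries entered 1 fit of 4 group means with a mean trend, two-sided, with Benjamini-Hochberg adjustment and a threshold of 0.05. Fold changes understate those of low genes. On the whole reads, edgeR 4.0.16 called 3703 genes at high and 3858 at medium MYC and DESeq2 1.42.0 called 3165 and 3340, against 3689 and 3618 by limma. Other alternatives were scalings, pseudocounts of 0.1 and 10, filters, no trend, fits on the compared groups, a replicate block and leaving out each library. A GC correction, alone or with the block, and the promoter element set were added after seeing the data.

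Symbols matched 56948 identifiers and GENCODE 29 matched 57447. Promoter windows from RefSeq matched all 9 genes. The genes and lists were chosen with earlier results of these data known. By rule the text names the 9 genes, up to 2 members of each list called in each direction with the smallest p-values, and 3 nearest genes in pattern for ERN1, ATF6 and XBP1. Other names were chosen after their values were seen.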

Additional observations from a re-analysis of the deposited data

Results flagged for a closer look

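A library stood apart from the other 3 of its group in 2 of the 36 combinations of gene and group examined (by Dixon's test), and chance alone gives about 1 in 20. ATF6 had 701.6 normalized counts in the lowest high MYC inhibitor library, where the next was at 762.7 (gap over range 0.855). MBTPS2 had 226.0 in the highest medium MYC control library, where the next was at 194.0 (0.845).

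For 4 genes the response to the inhibitor differed between the MYC levels by limma's test of the difference (medium minus high MYC, log2 scale). The differences were 0.85 for XBP1 (adjusted p = 7.85e-10), 0.38 for CREB3L2 (1.3e-05), 0.27 for NFE2L1 (0.00179) and 0.19 for ATF6 (0.0388). The XBP1, CREB3L2 and NFE2L1 calls held under every alternative run, and that of ATF6 did not.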

How the results depend on the processing

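The number of the 9 genes called stayed within 2 to 3 at high MYC, 6 to 7 at medium MYC and 3 to 5 for the difference over all alternatives, and the counts over all genes stayed within 1.5 times of those given. Over 1323 recomputed values of the 9 genes, 1280 kept direction and side of the threshold, 27 lost the call, 6 gained it and 10 changed sign. None of the values that changed sign was called, and the cause was not tested. These were CREB3L2 at high MYC with the GC correction (-0.007) and with the GC correction and the replicate block (-0.007), and the following when single libraries were left out. CREB3L2 at high MYC ran from -0.010 to 0.020, CREB3 at high MYC from -0.033 to 0.080, MBTPS2 at high MYC from -0.082 to 0.001, ATF6B at medium MYC from -0.001 to 0.085, and CREB3L2 between MYC levels among inhibitor libraries from -0.005 to 0.025. Same-numbered libraries showed little joint deviation on average (mean correlation of residuals from -0.0715 to 0.0243). Single pairs ran from -0.154 to 0.239, the highest being replicate 4 of the high and medium MYC controls. The labels do not say whether the numbers mark pairs, and these correlations cannot settle it. With the replicate block 3468 genes were called at high MYC, 3425 at medium MYC and 1052 for the difference, and ERN1 at medium MYC (adjusted p = 0.0501) and the ATF6 difference (0.0513) lost their calls. At most 1 of 4 libraries of a number correlated best with its own number. Scaling moved the split of calls: at high MYC 1442 genes were higher and 2247 lower, and with quantile normalization 1727 and 1770. At medium MYC 1606 were higher and 2012 lower, and with equal library totals 1962 and 1658. CREB3 had 123 to 413 reads per library and MBTPS2 186 to 336, which limits their precision.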
